A study of Mus musculus with 2 samples.

Results

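The Fc gamma receptors are the surface proteins through which white blood cells bind immunoglobulin G (IgG) by its constant end. The genes described here are Fcgr1, Fcgr3 and Fcgr4, which encode the activating receptors, Fcer1g, which encodes their shared signalling chain, Fcgr2b, which encodes the inhibitory receptor, and Fcgrt, which encodes the neonatal receptor FcRn. They were chosen by symbol and are 6 of the 55357 genes listed in the deposited matrix, with 1 row for each symbol. They were measured by droplet single-cell RNA-seq in tumours of RENCA, a kidney cancer cell line of BALB/c mice, grafted into the kidneys of BALB/c mice. The first library is labelled SMYD3 knockdown (called the knockdown-labelled library), a reduction of the methyltransferase SMYD3 made in the grafted tumour cells, and its counterpart is labelled WT (the WT-labelled library), with the tumours called control in the series description. There was 1 library of each label, and the sources used here give neither the age of the mice nor how many mice each library came from. The immune cells are those of the host, for which no genotype other than the strain is named, and the cells are described as sorted for the white-cell protein CD45, although each sample is labelled with the cell type epithelial.

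IgG that coats a target cell brings receptors together on the cell that binds it. The activating receptors FcγRI, FcγRIII and FcγRIV hold no complete activation motif of their own in mice and signal through the chain encoded by Fcer1g, whose immunoreceptor tyrosine-based activation motif (ITAM) recruits the kinase Syk and leads to phagocytosis and the oxidative burst. FcγRIIB carries an inhibitory motif (ITIM) in its tail that recruits the lipid phosphatase SHIP1 (Inpp5d) and damps the same signal, so the balance of both kinds on a macrophage sets its threshold for antibody-coated targets. FcRn works inside the cell with β2-microglobulin (B2m), where it returns bound IgG and albumin to the circulation instead of letting them be degraded.

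The motifs that make Fcer1g activating and Fcgr2b inhibitory are shown first, because the ratio described below rests on that division. They are coding stretches in GENCODE vM21 transcripts of GRCm38, read in the sense strand, with the codons of the motif tyrosines in capitals. The ITAM stretch covers codons 65 to 79 of Fcer1g and was the only ITAM match in the coding sequences of the 6 genes, and the ITIM stretch covers codons 317 to 322 of Fcgr2b. The looser ITIM pattern alone also matched in 4 other members, so a match by itself is a description of letters.
Fcer1g ITAM: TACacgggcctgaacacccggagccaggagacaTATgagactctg
Fcgr2b ITIM: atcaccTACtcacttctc

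In GENCODE vM21 (GRCm38), Fcgr2b (chr1:170958617-170976547, minus strand), Fcgr4 (chr1:171018920-171029761, plus strand) and Fcgr3 (chr1:171051174-171064935, minus strand) lie within 106319 bp, and with Fcer1g (chr1:171229572-171234365, minus strand) the chromosome 1 members span 275749 bp. Fcgr1 lies on chromosome 3 (chr3:96282909-96293969, minus strand) and Fcgrt on chromosome 7 (chr7:45092990-45103851, minus strand), where Rcn3, its nearest coding neighbour, lies 769 bp away on the same strand. Fcgr2b and Fcgr3 transcripts share an identical run of 129 bases and 233 stretches of 31 bases, none within their last 500 bases. Reads from that shared part could be split between an inhibitory and an activating gene, and the split was not tested. The antisense genes that overlap Fcgr2b (Gm38204) and Fcgrt (Gm45669) had at most 13 UMIs (unique molecules counted by a molecular tag) in either library's retained cells.

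The promoters of the 3 activating receptors and of the inhibitory one are shown because these genes share cells but differ in level between macrophage states. Each is the 250 bases before the RefSeq start (GRCm38.p6), 5′ to 3′ in the direction of the gene, and the capitals mark the core GAGGAA of the myeloid factor PU.1 on either strand. The windows are chr3:96293970-96294219 (minus strand) for Fcgr1, chr1:171059404-171059653 (minus strand) for Fcgr3, chr1:171018676-171018925 (plus strand) for Fcgr4 and chr1:170976072-170976321 (minus strand) for Fcgr2b. For Fcgr3, the first of 2 listed starts was used.
Fcgr1 promoter: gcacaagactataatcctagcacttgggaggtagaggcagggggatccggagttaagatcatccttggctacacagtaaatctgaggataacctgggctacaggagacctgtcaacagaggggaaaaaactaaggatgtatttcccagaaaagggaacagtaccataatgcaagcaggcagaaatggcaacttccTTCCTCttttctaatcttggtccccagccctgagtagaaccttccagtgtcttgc
Fcgr3 promoter: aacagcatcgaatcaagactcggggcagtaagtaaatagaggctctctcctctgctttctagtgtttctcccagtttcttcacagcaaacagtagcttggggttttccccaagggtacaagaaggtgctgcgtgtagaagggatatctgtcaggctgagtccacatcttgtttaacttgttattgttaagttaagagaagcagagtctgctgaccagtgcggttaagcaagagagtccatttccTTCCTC
Fcgr4 promoter: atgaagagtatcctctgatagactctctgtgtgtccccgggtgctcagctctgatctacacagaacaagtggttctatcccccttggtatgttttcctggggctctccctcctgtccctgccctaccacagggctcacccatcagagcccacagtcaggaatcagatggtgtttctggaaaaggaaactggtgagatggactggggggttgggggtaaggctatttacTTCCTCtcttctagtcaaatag
Fcgr2b promoter: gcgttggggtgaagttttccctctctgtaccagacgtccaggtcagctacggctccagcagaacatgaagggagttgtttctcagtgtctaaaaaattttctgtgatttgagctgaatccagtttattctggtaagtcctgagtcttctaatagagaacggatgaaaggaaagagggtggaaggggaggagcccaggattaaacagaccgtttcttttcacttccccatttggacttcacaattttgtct
In each of the 3 activating receptors this core had 1 match, whose first base lay 55 bases before the start in Fcgr1, 6 bases in Fcgr3 and 22 bases in Fcgr4. It had no match in the windows of Fcgr2b, Fcer1g or Fcgrt, and 23.1% of 27025 promoters of the same length hold it. The interferon-gamma element TTCNNNGAA, searched on both strands, matched in Fcgr1 alone among the 6 windows and in 7.18% of all promoters. The C/EBP pattern TTGCNNAA, searched on both strands, matched in Fcgr3 and Fcgrt and in 9.55% of all promoters.

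The knockdown-labelled library held 95803321 UMIs in 10186 barcodes and the WT-labelled library 91523767 UMIs in 9265 barcodes, and 8784 and 8079 cells were retained in that order, with 22 barcode sequences present in both libraries. The white-cell gene Ptprc had a UMI in 81.6% and 83.8% of them, while the epithelial gene Krt8 had one in 2.61% and 3.52%, so most cells had the markers of white cells and not the labelled epithelial type. In the tumour-like cells Smyd3 was not lower in the knockdown-labelled library (29 UMIs, 19.8 counts per 1000000 UMIs, CPM) than in the WT-labelled library (41 UMIs, 16.2 CPM), so each library is called by its label here. Pancreatic enzyme transcripts set the libraries apart: their 10-gene list reached 379 CPM in monocyte-macrophage-like cells and 2698 CPM in neutrophil-like cells of the knockdown-labelled library, against 0.0281 and 0.592 CPM in the WT-labelled library. The part of this signal in the results below was not tested. Leaving pancreatic, mitochondrial, ribosomal and haemoglobin genes out of the totals moved no member's ratio in monocyte-macrophage-like or neutrophil-like cells out of its counting interval. That setting changes only the totals and not the members' own counts, so it cannot show the part of the pancreatic signal. With 1 library per label no test is possible, every difference is one between 2 libraries, and all intervals are 95% intervals for counting error only.

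Cells were grouped by the markers of their clusters, from which the 6 members were left out. Monocyte-macrophage-like cells made up 6058 of the cells in the knockdown-labelled library and 6019 in the WT-labelled library, and they held most UMIs of every member. Neutrophil-like cells came to 2105 in the knockdown-labelled library and 1290 in the WT-labelled library, dendritic-cell-like cells to 337 and 425, T-cell-like cells to 100 and 133, and NK-cell-like cells to 21 and 41. CPM values are UMIs of a gene per 1000000 UMIs of all cells of a class. They are not divided by length, and the sources used here do not say which transcript end the chemistry counts, so levels are compared between cells and libraries for the same gene.

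The receptors had distinct ranges over these classes. Fcgr1, the high-affinity receptor, was a monocyte-macrophage gene, with 146 CPM in the knockdown-labelled library and 126 CPM in the WT-labelled library, against 31.6 and 26.5 CPM in dendritic-cell-like cells and 19.5 and 21.3 CPM in neutrophil-like cells. Fcgr3, the low-affinity activating receptor, was highest in neutrophil-like cells, at 1025 and 1029 CPM, followed by monocyte-macrophage-like cells, at 874 and 806 CPM, and was lower in dendritic-cell-like cells, at 341 and 283 CPM. Fcgr4, which binds IgG2a and IgG2b, was highest in neutrophil-like cells, at 80.2 CPM in the knockdown-labelled library and 111 CPM in the WT-labelled library. These ranks are by CPM, and neutrophil-like cells held far fewer UMIs per cell. Counted per cell, Fcgr3 had 1.43 and 1.35 UMIs in neutrophil-like cells against 10.7 and 9.53 in monocyte-macrophage-like cells. Fcgr4 had 0.112 and 0.146 against 0.412 and 0.432.

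Fcer1g was carried by every myeloid class and by NK-cell-like cells. It stood at 1863 CPM in the knockdown-labelled library and 1804 CPM in the WT-labelled library in monocyte-macrophage-like cells, at 2064 and 2153 CPM in neutrophil-like cells, at 1011 and 950 CPM in dendritic-cell-like cells and at 931 and 1021 CPM in NK-cell-like cells. Fcgr2b was highest in monocyte-macrophage-like cells, at 1251 CPM in the knockdown-labelled library and 1401 CPM in the WT-labelled library, followed by neutrophil-like cells at 796 and 886 CPM and dendritic-cell-like cells at 532 and 638 CPM. Fcgrt was mainly a monocyte-macrophage gene, at 492 and 534 CPM, against 147 and 161 CPM in dendritic-cell-like cells and 60.7 and 91.1 CPM in neutrophil-like cells. By CPM, the order of the 3 myeloid classes was the same in both libraries for each of the 6 members.

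**Figure D1:**
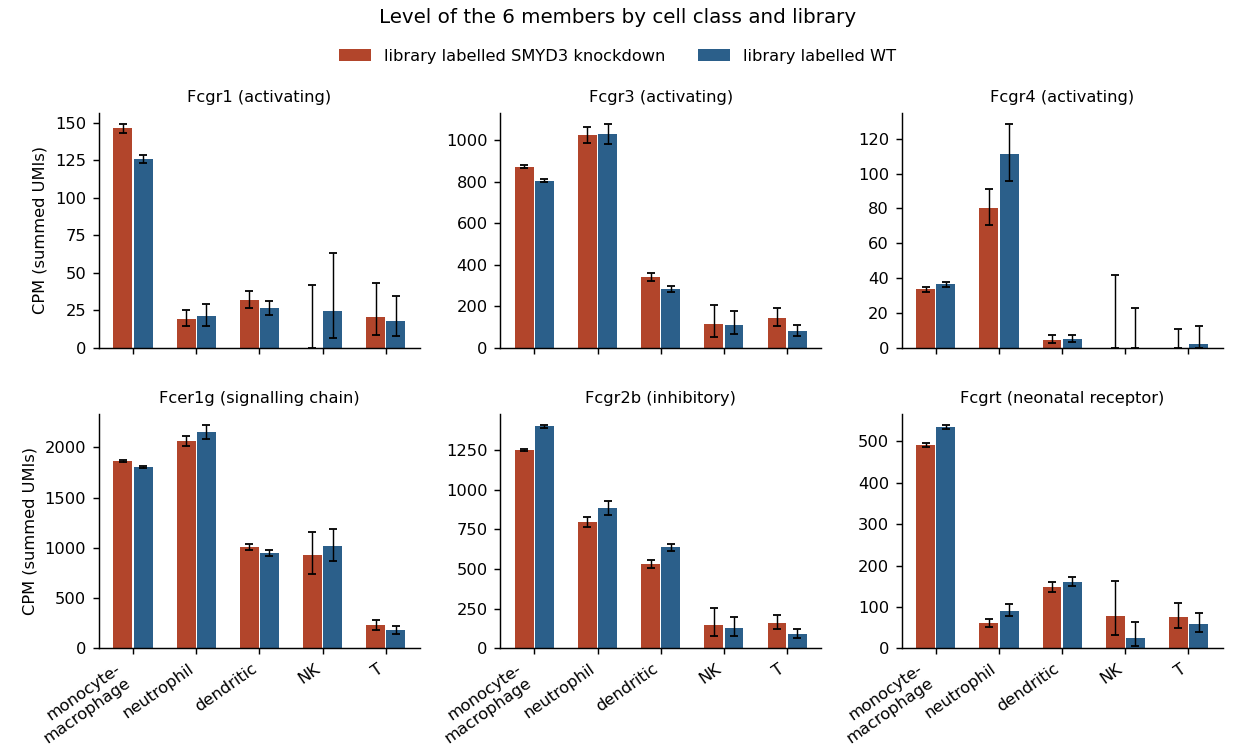
Level of each member in CPM of summed UMIs (y axis, from 0) by cell class (x axis) in the knockdown-labelled library (left bar of each pair) and the WT-labelled library (right bar), with exact 95% Poisson intervals. Fcgr1, Fcgr2b and Fcgrt were highest in monocyte-macrophage-like cells and Fcgr4 in neutrophil-like cells in both libraries.

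Some of these UMIs are at the level that free RNA gives. The complement genes C1qa, C1qb and C1qc served as a yardstick, since macrophages make them and T cells do not, and T-cell-like cells still held 5.34 C1q UMIs per cell in the knockdown-labelled library and 3.83 in the WT-labelled library. Per 100 C1q UMIs, T-cell-like cells had 8.99 and 7.07 Fcgr3 UMIs, 10.1 and 8.05 Fcgr2b UMIs and 14.4 and 16.3 Fcer1g UMIs, all below the 10.2 and 9.71, 14.5 and 16.9, and 21.6 and 21.7 UMIs of monocyte-macrophage-like cells. Fcgr4 and Fcgrt were below in both libraries too. Fcgr1 was below in the knockdown-labelled library, at 1.31 against 1.70, but slightly above in the WT-labelled library, at 1.57 against 1.52, on 8 UMIs. The members' counts in T-cell-like cells are therefore read as background, with that exception for Fcgr1. Neutrophil-like cells were far above that yardstick for Fcgr3, with 74.8 UMIs per 100 C1q UMIs in the knockdown-labelled library and 59.0 in the WT-labelled library, for Fcgr2b, with 58.0 and 50.8, and for Fcer1g, with 151 and 124. Fcgr4, at 5.85 and 6.38, was also above the 0.390 and 0.440 of monocyte-macrophage-like cells. Fcgr1, at 1.42 and 1.22, and Fcgrt, at 4.43 and 5.23, were not, so their low levels in neutrophil-like cells are read as background too.

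Both kinds of receptor were seen in the same macrophages. At 1000 UMIs per cell, an activating receptor and Fcgr2b were both seen in 42.1% of 5867 monocyte-macrophage-like cells in the knockdown-labelled library and in 43.5% of 5830 in the WT-labelled library. Activating receptors alone were seen in 18.7% against 15.4%, Fcgr2b alone in 23.4% against 27.2%, and neither in 15.8% against 13.95%. At the cells' own depth, with medians of 11531 and 11119 UMIs, both kinds were seen in 93.3% and 93.7%. In T-cell-like cells, whose counts are read as background, both were seen in 2.04% and 1.56% of cells after thinning and in 9.0% and 5.26% before. Fcgr3 alone had a UMI in 55.0% and 53.0% of thinned monocyte-macrophage-like cells, 94.9% and 94.7% before thinning, against 11.2% and 3.13% of thinned T-cell-like cells, 26.0% and 15.0% before thinning at median depths of 2894 and 2534 UMIs.

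The comparison of the labels asked how the receptors stood on the host's immune cells in tumours of either kind. In monocyte-macrophage-like cells the activating receptors Fcgr1 and Fcgr3 were somewhat higher, and the inhibitory Fcgr2b somewhat lower, in the knockdown-labelled library than in the WT-labelled library. Fcgr1 stood at 146 CPM against 126 CPM, a ratio of 1.16 (1.13 to 1.195). Fcgr3 stood at 874 CPM against 806 CPM, a ratio of 1.08 (1.07 to 1.10). Fcgr2b stood at 1251 CPM against 1401 CPM, a ratio of 0.893 (0.885 to 0.901).

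The other members differed less or less evenly. Fcer1g stood at 1863 CPM in the knockdown-labelled library and 1804 CPM in the WT-labelled library, a ratio of 1.033 (1.025 to 1.041). Fcgr4 stood at 33.6 CPM against 36.5 CPM, a ratio of 0.920 (0.871 to 0.973), and thus lay on the side of Fcgr2b and not of the other activating receptors. Fcgrt stood at 492 CPM against 534 CPM, a ratio of 0.921 (0.907 to 0.934), but this changed with the weighting of the clusters. With each cluster weighing the same, a setting chosen after seeing the data, the Fcgrt ratio was 1.01. The Lyve1 Cd163 cluster, where Fcgrt, Fcgr3 and Fcgr2b are all highest, held 801 cells in the knockdown-labelled library and 1238 in the WT-labelled library. The part of cluster sizes in the members' ratios was not tested.

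Over single clusters Fcgr1 had an interval above 1 in 7 of 11 and below 1 in 0, Fcgr3 in 9 and 0, Fcer1g in 5 and 2, and Fcgr2b in 1 and 7. Fcgr4, with 2 and 3, and Fcgrt, with 4 and 3, had no common direction. Fcgr4 was more than 1.5-fold lower under the knockdown label in the H2-DMb1 Cd74 cluster, at 5.72 CPM in the knockdown-labelled library and 12.2 CPM in the WT-labelled library, and in the Ly6c2 Plac8 cluster, at 33.8 and 60.7 CPM.

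Over the whole class the differences were small. None of the 6 members was 1.5-fold apart between the libraries in monocyte-macrophage-like cells, where 0.974% of 7905 genes measured there were (on the scale of log2 of CPM plus 5), 0.316% higher and 0.658% lower in the knockdown-labelled library. The members' median log2 difference was -0.03, beside -0.02 over all genes measured. A cluster of the class, led by Nos2, Adm and Mmp12, had the platelet-list gene Ppbp among its 10 leading genes. No marker of its own list was among them, as in every cluster of the class except Car4 Vcan, Ch25h Ccl12 and Ly6c2 Plac8. Clusters without such a marker were named by the markers detected per cell. Without the cluster led by Nos2 the ratios were 1.17 for Fcgr1, 1.08 for Fcgr3, 0.895 for Fcgr4, 1.04 for Fcer1g, 0.887 for Fcgr2b and 0.911 for Fcgrt. The Ch25h Ccl12 cluster is led by the haemoglobin gene Hbb-bs and, within the class, also by the pancreatic genes Ctrb1, Prss2, Try5 and Try4, and the part of these transcripts in its values was not tested. Neutrophil markers in these cells summed to 240 CPM in the knockdown-labelled library and 209 CPM in the WT-labelled library, T cell markers to 1.42 and 2.70 CPM, and their part in the differences was not tested.

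**Figure D2:**
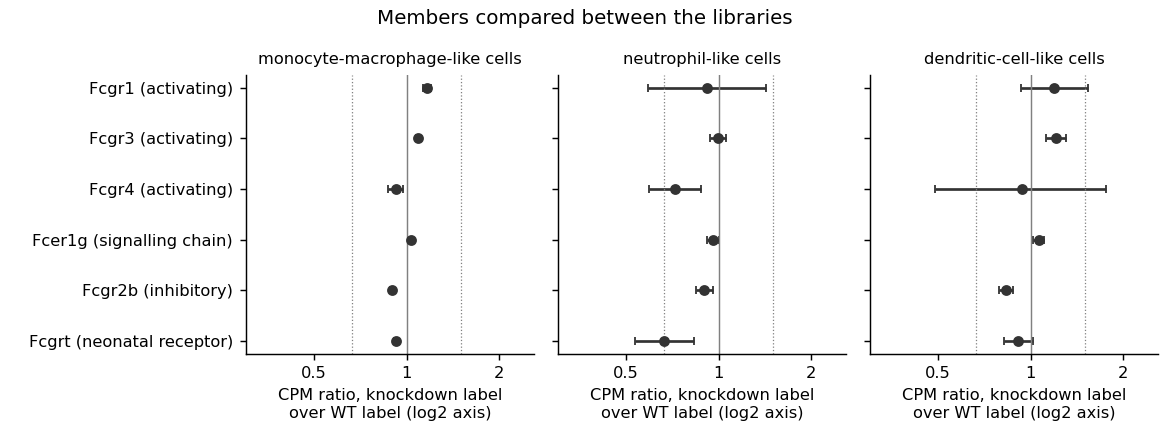
Ratio of each member's CPM in the knockdown-labelled library to that in the WT-labelled library (x axis, log2 scale) in monocyte-macrophage-like, neutrophil-like and dendritic-cell-like cells, with 95% counting intervals, a line at 1 and dotted lines at 1.5-fold either way. Fcgr2b lay below 1 in all 3 classes, at 0.893, 0.899 and 0.833, and Fcgr3 lay above 1 in monocyte-macrophage-like and dendritic-cell-like cells, at 1.08 and 1.21.

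The activating to inhibitory ratio, the UMIs of Fcgr1, Fcgr3 and Fcgr4 over those of Fcgr2b, needs no library total and sums these differences up. Counts of different genes are not on a shared scale here, so equal counts are not a point of balance. The ratio is read only between cells and between libraries. In monocyte-macrophage-like cells it was 0.843 (0.835 to 0.851; 78254 against 92873 UMIs) in the knockdown-labelled library and 0.691 (0.684 to 0.698; 68906 against 99743 UMIs) in the WT-labelled library. The ratio was thus 1.22 times as high under the knockdown label (1.203 to 1.236), and also 1.22 times without the Ch25h Ccl12 cluster. Fcgr3 made up 82.9% and 83.2% of the activating UMIs, so this ratio is mainly one of Fcgr3 to Fcgr2b.

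The difference had the same direction in 10 of the 11 monocyte-macrophage-like clusters, each with an interval clear of 1. It stood at 0.720 in the knockdown-labelled library against 0.618 in the WT-labelled library in the Lyve1 Cd163 cluster, markers of perivascular and resident macrophages, and at 0.864 against 0.701 in the Cx3cr1 Vcam1 cluster. It stood at 0.686 against 0.580 in the H2-DMb1 Cd74 cluster, which carries genes of MHC class II presentation, and at 0.793 against 0.687 in the Car4 Vcan cluster. Across these 10 clusters the knockdown label was between 1.14 and 1.30 times as high as the WT label. The exception was the Ly6c2 Plac8 cluster, with genes of classical monocytes, at 0.785 in 255 cells of the knockdown-labelled library against 0.979 in 160 cells of the WT-labelled library, or 0.802 times as high (0.711 to 0.905).

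States differed more from each other than the libraries did. Among monocyte-macrophage-like clusters the lowest ratios, 0.686 in the knockdown-labelled library and 0.580 in the WT-labelled library, were those of the H2-DMb1 Cd74 cluster. The only monocyte-macrophage-like clusters above 1 in both libraries were the interferon-response cluster led by Rsad2 and Ifit2, at 1.38 and 1.10, and the Prg4 Cd5l cluster, whose other leading genes Alox15, Selp and Cxcl13 are known from large peritoneal macrophages, at 1.79 and 1.46. Cells gated one by one on 2 lead genes of a state gave the same direction in 9 of 10 gates, from 1.21 to 1.35 times, and 0.984 (0.887 to 1.09) in cells with both Ly6c2 and Plac8. The opposite direction in the Ly6c2 Plac8 cluster thus held for the cluster but not for the gate. A cell could pass several gates, and the gated cells are those of the clusters. The 10 gates are therefore not separate from each other or from the clusters.

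**Figure D3:**
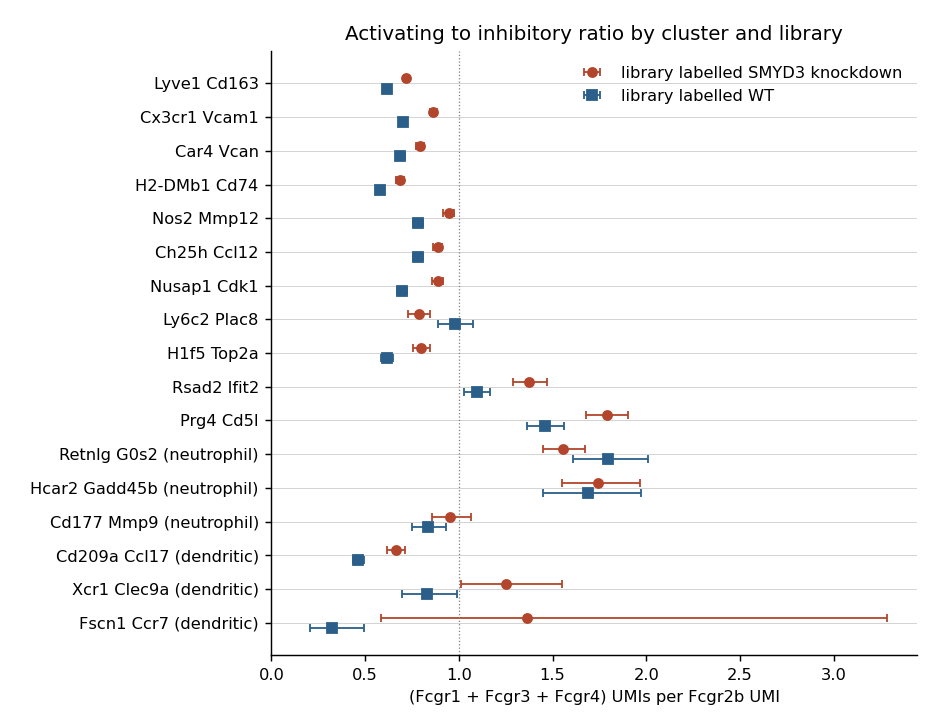
UMIs of the 3 activating receptors per Fcgr2b UMI (x axis, from 0) in each monocyte-macrophage-like, neutrophil-like and dendritic-cell-like cluster (rows, named by leading genes) in the knockdown-labelled library (circles, upper) and the WT-labelled library (squares, lower), with exact 95% counting intervals and a dotted line at 1. The circle lies right of the square in 10 of the 11 monocyte-macrophage-like rows, and the Ly6c2 Plac8 row has the opposite order.

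The members' own levels showed what set the states apart. Fcgr1 was highest in the Rsad2 Ifit2 cluster, at 468 CPM in the knockdown-labelled library and 388 CPM in the WT-labelled library, and lowest in the H2-DMb1 Cd74 cluster, at 68.7 and 53.7 CPM. That is a range of 6.81-fold and 7.22-fold within the class. Fcgr1 is a known interferon target, and the Cx3cr1 Vcam1 cluster, next in order, had 213 and 181 CPM. Fcgr4 was highest in the Prg4 Cd5l cluster, at 227 and 195 CPM, followed by the Rsad2 Ifit2 cluster, at 122 and 113 CPM, and lowest in the cycling H1f5 Top2a cluster, at 5.27 and 4.41 CPM.

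Fcgr3 and Fcgr2b had their highest levels in the same cells. In the Lyve1 Cd163 cluster Fcgr3 reached 1319 CPM in the knockdown-labelled library and 1197 CPM in the WT-labelled library, and Fcgr2b 2145 and 2253 CPM. The Prg4 Cd5l cluster departed from this pairing, with Fcgr3 at 1167 and 947 CPM beside Fcgr2b at only 834 and 832 CPM. In the Ly6c2 Plac8 cluster Fcgr3 was at 586 and 588 CPM, while Fcgr2b was at 904 CPM in the knockdown-labelled library and 777 CPM in the WT-labelled library, a ratio of 1.16 (1.07 to 1.27) where the class as a whole had 0.893.

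Fcgrt differed widely between states, by 28-fold in the knockdown-labelled library and 25.35-fold in the WT-labelled library, a range exceeded among the members by the 43.2-fold and 44.2-fold of Fcgr4. It stood at 1509 CPM in the knockdown-labelled library and 1412 CPM in the WT-labelled library in the Lyve1 Cd163 cluster, and between 635 and 754 CPM over both libraries in the Cx3cr1 Vcam1, Ch25h Ccl12 and Nusap1 Cdk1 clusters. In the Car4 Vcan, H2-DMb1 Cd74, Ly6c2 Plac8 and H1f5 Top2a clusters it lay between 53.9 and 92.9 CPM. The 2 cycling clusters, led by Nusap1 and by H1f5, therefore differed, at 679 and 741 CPM against 53.9 and 55.7 CPM. Fcer1g varied least, from 1308 to 2237 CPM in the knockdown-labelled library and from 1267 to 2128 CPM in the WT-labelled library.

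**Figure D4:**
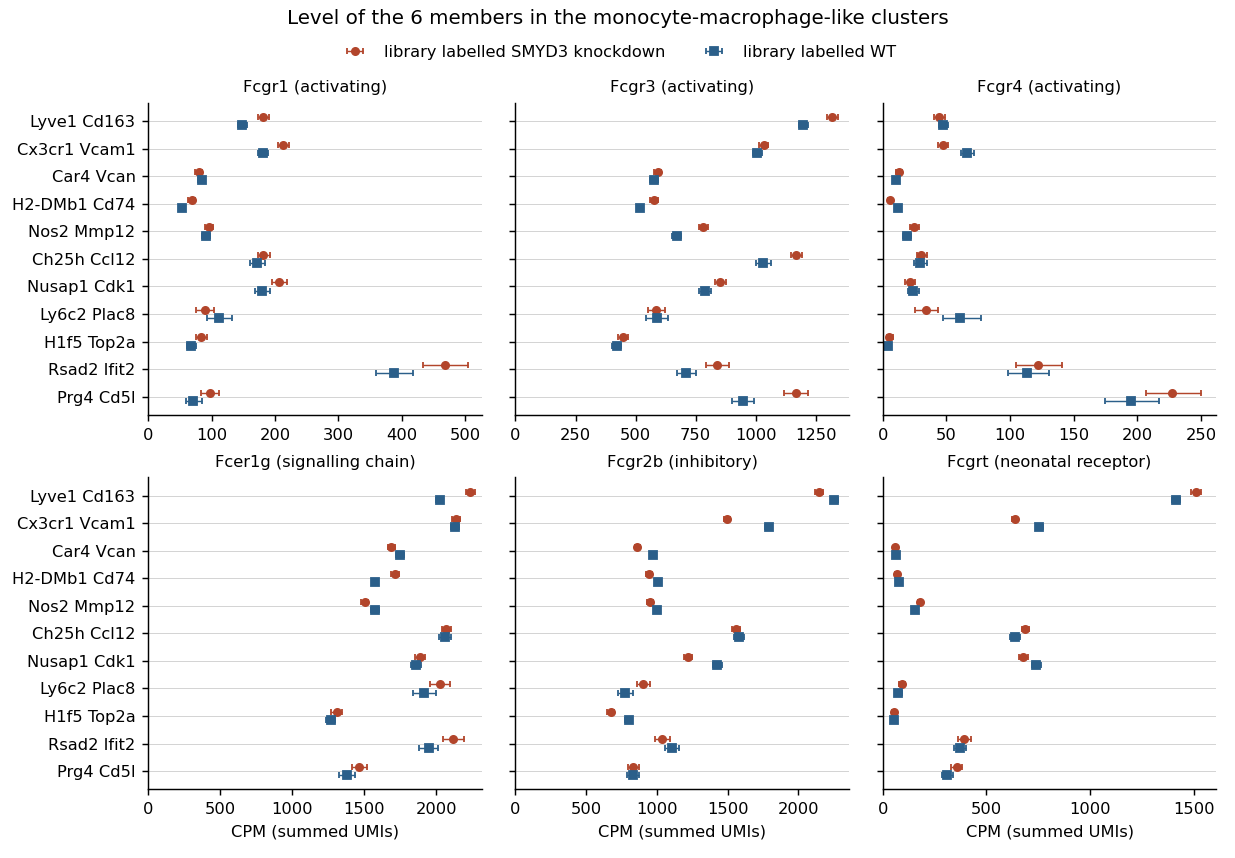
Level of each member in CPM of summed UMIs (x axes, from 0) in the 11 monocyte-macrophage-like clusters (rows, named by leading genes) in the knockdown-labelled library (circles, upper) and the WT-labelled library (squares, lower), with exact 95% Poisson intervals. Fcgr1 peaks in the Rsad2 Ifit2 row, Fcgr4 in the Prg4 Cd5l row, and Fcgr3, Fcgr2b and Fcgrt in the Lyve1 Cd163 row in both libraries.

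The same cells were ordered by the share of their UMIs from C1qa, C1qb and C1qc, a measure of macrophage character that uses none of the members, and divided into quintiles. All 6 members were higher in the highest quintile than in the lowest in both libraries. The step was 23.3-fold in the knockdown-labelled library and 28.6-fold in the WT-labelled library for Fcgrt, 4.28-fold and 5.58-fold for Fcgr4, and 3.02-fold and 2.80-fold for Fcgr1. Fcgr3, at 2.40-fold and 2.43-fold, and Fcgr2b, at 2.42-fold and 2.44-fold, had nearly the same step, and Fcer1g one of 1.46-fold and 1.49-fold. With each cell thinned to 1000 UMIs, where cells without a C1q UMI form a single lowest group, the steps were smaller: 16.8-fold and 17.55-fold for Fcgrt, 2.84-fold and 3.09-fold for Fcgr4, 2.70-fold and 1.92-fold for Fcgr1, 2.05-fold and 2.03-fold for Fcgr3, 2.08-fold and 2.02-fold for Fcgr2b, and 1.26-fold and 1.225-fold for Fcer1g. The activating to inhibitory ratio had no steady order along the C1q share. It was higher in the knockdown-labelled library in each quintile, at 0.797, 0.820, 0.912, 0.838 and 0.829 in order of rising C1q share, against 0.673, 0.709, 0.724, 0.660 and 0.700 in the WT-labelled library.

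**Figure D5:**
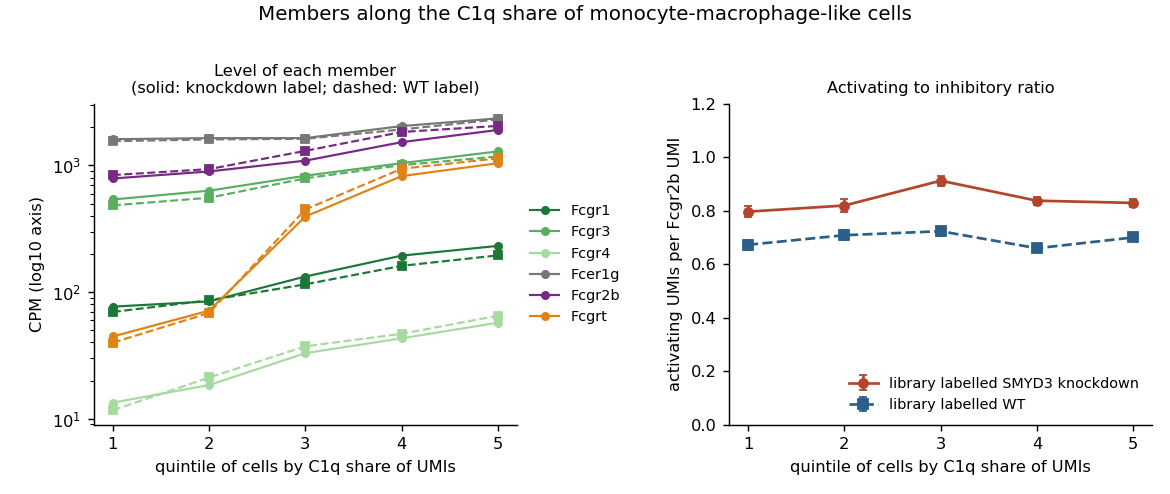
Left, CPM of each member (y axis, log10 scale) over quintiles of monocyte-macrophage-like cells from low to high C1q share (x axis) in the knockdown-labelled library (solid) and the WT-labelled library (dashed). Right, activating UMIs per Fcgr2b UMI (y axis, from 0) with 95% counting intervals, where the knockdown-labelled library lies above the WT-labelled library in all 5 quintiles.

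Neutrophil-like cells had a higher activating to inhibitory ratio than monocyte-macrophage-like and dendritic-cell-like cells in both libraries. Their activating to inhibitory ratio was 1.41 (1.34 to 1.49) in the knockdown-labelled library and 1.31 (1.22 to 1.40) in the WT-labelled library, and the quotient of these, 1.08 (0.990 to 1.18), included 1. Fcgr3 did not differ beyond counting error, at 1025 CPM against 1029 CPM. Fcgr2b was lower in the knockdown-labelled library, at 796 CPM against 886 CPM, a ratio of 0.899 (0.842 to 0.960), and so was Fcgr4, at 80.2 CPM against 111 CPM, a ratio of 0.721 (0.593 to 0.878).

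Neutrophil-like cells need a second scale, because the median gene there was lower by 0.11 on the log2 scale in the knockdown-labelled library. Relative to that median the ratios were 1.08 for Fcgr3, 0.970 for Fcgr2b, 0.779 for Fcgr4 and 1.04 for Fcer1g, which was 0.959 on the CPM scale. Fcgrt, read as background in these cells, had a ratio of 0.667 (0.534 to 0.833), which turned to 1.32 when doublets were kept. None of the 6 members was 1.5-fold apart, beside 7.53% of 5896 genes, 2.14% higher and 5.39% lower in the knockdown-labelled library, and Fcgrt lay just short of that fold. Monocyte-macrophage markers in these cells summed to 4259 CPM in the knockdown-labelled library and 4701 CPM in the WT-labelled library.

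The neutrophil-like clusters were unlike each other. The Cd177 Mmp9 cluster had the lowest activating to inhibitory ratios of the class. These were 0.955 (0.857 to 1.06) in the knockdown-labelled library and 0.836 (0.750 to 0.933) in the WT-labelled library. It also had the highest Fcgr2b of the class, at 1199 and 1478 CPM. The Hcar2 Gadd45b cluster stood at 1.75 and 1.69, with Fcgr2b at 542 and 552 CPM. The Retnlg G0s2 cluster, the largest, stood at 1.56 in 1032 cells of the knockdown-labelled library against 1.80 in 483 cells of the WT-labelled library, or 0.866 times as high (0.759 to 0.987).

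Dendritic-cell-like cells had the largest difference between the libraries among the named classes with at least 100 cells in each library. Their activating to inhibitory ratio was 0.710 (0.665 to 0.759) in the knockdown-labelled library and 0.492 (0.464 to 0.523) in the WT-labelled library, or 1.44 times as high (1.32 to 1.58). Fcgr3 stood at 341 CPM against 283 CPM, a ratio of 1.21 (1.12 to 1.30), and Fcgr2b at 532 CPM against 638 CPM, a ratio of 0.833 (0.788 to 0.880). None of the 5 members measured there was 1.5-fold apart, beside 2.48% of 8115 genes, 0.764% higher and 1.71% lower in the knockdown-labelled library. Fcgr4 was barely present, with 19 UMIs in the knockdown-labelled library and 26 in the WT-labelled library.

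By a marker gate applied cell by cell, 431 cells of the dendritic clusters counted as monocyte-macrophage and only 256 as dendritic, and in the cells gated as dendritic the activating to inhibitory ratio was 1.38 times as high under the knockdown label. Most of these receptors sat in the Cd209a Ccl17 cluster, which has genes of conventional type 2 dendritic cells. There Fcgr2b was at 822 CPM in the knockdown-labelled library and 976 CPM in the WT-labelled library, and the activating to inhibitory ratio at 0.662 and 0.463. The Xcr1 Clec9a cluster, with genes of type 1 dendritic cells, had Fcgr2b at 118 and 167 CPM and a ratio of 1.25 against 0.831. The Fscn1 Ccr7 cluster of mature cells, with 36 and 51 cells, had 15 activating and 11 inhibitory UMIs in the knockdown-labelled library against 29 and 90 in the WT-labelled library, which gives 1.36 and 0.322. Monocyte-macrophage markers in the dendritic-cell-like cells summed to 3823 CPM in the knockdown-labelled library and 4715 CPM in the WT-labelled library, and their part in the difference was not tested.

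Lymphocytes held few UMIs of these receptors. NK-cell-like cells carried Fcer1g at 82 UMIs in the knockdown-labelled library and 165 UMIs in the WT-labelled library, or 164 and 150 per 100 C1q UMIs, far above the yardstick of macrophages. Their Fcgr3, the one Fc gamma receptor known from mouse NK cells, came to 10 and 18 UMIs, and Fcgr4 to 0 in both. That Fcgr3 is 20.0 and 16.4 per 100 C1q UMIs, above the 10.2 and 9.71 of macrophages. Fcgr2b, at 13 and 21 UMIs or 26.0 and 19.1 per 100 C1q UMIs, was likewise above the 14.5 and 16.9 of macrophages. Fcgr1 was above in the WT-labelled library alone, on 4 UMIs, and Fcgrt in the knockdown-labelled library alone, on 7 UMIs. B-cell-like cells, 9 and 18 in number, had 8 and 7 UMIs of Fcgr2b, the receptor known from B cells. In T-cell-like cells 2 of the 4 members measured were at least 1.5-fold higher in the knockdown-labelled library, beside 18.6% of 4029 genes apart, 7.2% higher and 11.4% lower: Fcgr3 at 143 CPM against 79.5 CPM, and Fcgr2b at 161 CPM against 90.5 CPM. Both are at the background level described above, the direction of both turned under other settings, and monocyte-macrophage markers there summed to 3954 CPM against 2751 CPM. In tumour-like cells Fcgrt stood at 79.2 and 72.4 CPM, or 18.4 and 16.1 UMIs per 100 C1q UMIs, above the 5.71 and 6.44 of monocyte-macrophage-like cells. Fcgr4 was also above, at 0.791 and 1.495 against 0.390 and 0.440, but on 5 and 17 UMIs. Fcgr3 and Fcer1g were below their yardsticks in both libraries, Fcgr1 was above in the knockdown-labelled library alone and Fcgr2b in the WT-labelled library alone.

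The genes through which these receptors signal were read from lists chosen for their role. Of the 27 genes that act after the activating receptors, 26 were measured in monocyte-macrophage-like cells, and none was 1.5-fold apart, with a median log2 difference of -0.04 beside -0.02 over all genes measured. Syk, the kinase that binds the phosphorylated ITAM, stood at 77.5 CPM in the knockdown-labelled library and 102 CPM in the WT-labelled library, a ratio of 0.757 (0.731 to 0.784). The adaptor Blnk stood at 15.3 against 20.7 CPM, a ratio of 0.739, and the exchange factor Vav3 at 32.9 against 40.4 CPM, a ratio of 0.814. Cyba, a membrane subunit of the NADPH oxidase, went the other way, at 1634 against 1420 CPM, a ratio of 1.15. So the activating receptors Fcgr1 and Fcgr3 and their first kinase differed in opposite directions between the libraries.

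Syk was also lower under the knockdown label in neutrophil-like and dendritic-cell-like cells. Its ratio was 0.739 (0.662 to 0.824) in neutrophil-like cells, at 259 CPM in the knockdown-labelled library against 350 CPM in the WT-labelled library, and 0.680 (0.583 to 0.791) in dendritic-cell-like cells, at 65.0 against 95.7 CPM. In neutrophil-like cells Rac1, which drives actin remodelling during phagocytosis, had a ratio of 0.720, the docking protein Gab2 one of 0.805 and the Src-family kinase Fgr one of 1.22. Of 25 list genes measured there none was 1.5-fold apart. In dendritic-cell-like cells 1 of 26 was, beside 2.48% of all genes measured: Cybb, the catalytic subunit of the NADPH oxidase, at 263 CPM in the knockdown-labelled library against 412 CPM in the WT-labelled library, a ratio of 0.639 (0.593 to 0.688). Src, a kinase gene below the 10 CPM needed to be counted, was higher, at 28 UMIs against 15 UMIs, a ratio of 2.39 (1.23 to 4.81), and Blnk lower, at 20.8 against 32.3 CPM, a ratio of 0.644 (0.489 to 0.841).

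Inhibitory signalling genes did not move as a group. None of 16 was 1.5-fold apart in monocyte-macrophage-like cells, with a median log2 difference of -0.05. Pirb, an inhibitory receptor for MHC class I, stood at 110 CPM in the knockdown-labelled library and 132 CPM in the WT-labelled library, a ratio of 0.836. The collagen receptor Lair1 stood at 42.7 against 36.1 CPM, a ratio of 1.18, the ubiquitin ligase Cblb at 20.1 against 24.0 CPM, a ratio of 0.836, and Ptpn6, which encodes the phosphatase SHP-1, at 168 against 152 CPM, a ratio of 1.10. Inpp5d, which encodes the SHIP1 that FcγRIIB recruits, stood at 104.5 against 111 CPM, a ratio of 0.943 (0.914 to 0.974). Of 14 measured in neutrophil-like cells 1 was 1.5-fold lower, beside 5.39% of all genes measured there: Lair1, at 22 UMIs in the knockdown-labelled library against 25 UMIs in the WT-labelled library. Clec12a, an inhibitory lectin receptor, went the other way on more UMIs, at 527 against 201 UMIs or 180 against 119 CPM, a ratio of 1.51 (1.28 to 1.79), just short of that fold on the scale of the count. Inpp5d followed with a ratio of 0.802 (0.692 to 0.931) and the adaptor Dok2 with 0.839 (0.607 to 1.17). In dendritic-cell-like cells none of 16 was 1.5-fold apart, and Lair1 had a ratio of 0.708 (0.511 to 0.974), the adaptor Dok3 one of 1.53 (0.959 to 2.45), Cblb one of 0.807 (0.641 to 1.01) and the inhibitory receptor Cd300a one of 1.14 (0.975 to 1.34).

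The partners of the members differed little. Tyrobp, the other ITAM chain of myeloid cells, stood at 1363 CPM in the knockdown-labelled library and 1281 CPM in the WT-labelled library in monocyte-macrophage-like cells, a ratio of 1.06, and the chain Hcst at 24.1 against 28.8 CPM, a ratio of 0.839. B2m, without which FcRn does not reach its place in the cell, stood at 2087 against 1941 CPM, a ratio of 1.075 (1.067 to 1.083), while Fcgrt lay on the other side of 1. The chain Cd247 had 15 UMIs in the knockdown-labelled library and 21 UMIs in the WT-labelled library. Among 13 other Fc receptor genes only Fcrls reached 10 CPM in these cells, at 126 CPM in both libraries, while Fcrlb had 6.52 against 7.56 CPM, Trim21 5.07 against 4.59 CPM, Fcrla 85 against 68 UMIs and Fcrl1 31 against 34 UMIs. RNA of the IgG heavy chains that could be counted was scarce in the retained cells, while Ighg2a is not among the genes listed in the matrix and could not be counted. Ighg1, Ighg2b and Ighg3 together had no UMI in those of the knockdown-labelled library and 8, 8 and 4 in those of the WT-labelled library. Ighg2c had no UMI in either library. With doublets kept, however, Ighg2b was among the 10 leading genes of a cluster led by Asgr2 and Cd209a. The light chain gene Igkc was the first leading gene of the Cx3cr1 Vcam1 cluster of retained cells.

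Across 38 profiles of cluster and library, the correlation of log2 of CPM plus 5 with 10214 genes showed which genes were most like each member. Profiles of the same library share their free RNA, and both libraries share their clusters, so these values are descriptions. Fcgr3 was most like Fcer1g (Pearson's r 0.96), Fcgr2b (0.92) and the chemokine gene Ccl6 (0.91). Fcer1g was most like Fcgr3 and had an r of 0.94 with Tyrobp, and Fcgr2b was most like Fcer1g (0.94), Fcgr3 and Rnf130 (both 0.92). Fcgr3 and Fcgr2b thus each had Fcer1g as their nearest gene among all compared, and each other next.

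The other 3 members were less like these. Fcgr1 was most like Ms4a6d (0.94), Ms4a6c (0.93) and the complement receptor gene C3ar1 (0.91), and its r with Fcgr3 was 0.67. Fcgr4 was most like Wfdc17, Wfdc18 and Mtus1 (all 0.82), with an r of 0.72 with Fcgr3. Fcgrt was most like Rcn3 (0.95), its neighbour on chromosome 7, followed by Stard8 (0.93) and Scamp5 (0.92), and its r with the other members lay between 0.36 and 0.67. Whether reads that run on between Fcgrt and Rcn3 add to this likeness was not tested.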

How the data were processed

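The authors deposited whole UMI counts per gene and cell for both libraries, made with Cell Ranger 7.1.0 per the file headers and on mm10 per the submitters' processing notes. The annotation release and the 3′ or 5′ chemistry are not given in the sources used here. Barcodes were assigned to libraries through the deposited list that names the sample of each barcode. Cells were retained from 200 genes and 500 UMIs upwards and up to 20% of mitochondrial UMIs. Scrublet (scanpy 1.11.5) marked 0 doublets by its own threshold in either library, so cells were removed from the top of its score instead, 0.8% for every 1000 cells in a library, 723 in the knockdown-labelled library and 603 in the WT-labelled library. Leiden clustering (leidenalg 0.10.2, 2000 variable genes without the members, 30 components, 15 neighbours, resolution 1) gave 23 clusters, named after the fixed marker list with most genes among the 10 leading ones, ties going to the list with most markers detected per cell. Names end in -like because they were rebuilt from markers.

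UMIs were summed per class or cluster and library. Intervals are 95% Poisson (levels), Clopper-Pearson (shares), conditional binomial (ratios of levels) and Wald on the log scale (quotients of activating to inhibitory ratios). Genes counted as measured reached 20 UMIs and 10 CPM in a library, and those 1.5-fold apart were counted on log2 of CPM plus 5. In each of the 3 myeloid classes up to 4 genes were named per signalling list, those with the largest differences among genes that reached 20 UMIs, and the shorter lists were described in monocyte-macrophage-like cells only. Inpp5d in monocyte-macrophage-like cells was added for its role in FcγRIIB signalling, and Fcrls as the one measured gene of its list, both after their values were seen. For each member its 3 most alike genes were named, except 1 that is not reported here. Members and lists were chosen with earlier results of these data known. The interval functions were tested on simulated data.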

Additional observations from a re-analysis of the deposited data

Results flagged for a closer look

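The clusters named here differed between the libraries in the direction opposite to their class, with both counting intervals clear of 1. None of these contrasts between clusters was tested, since there is 1 library per label. The activating to inhibitory ratio, 1.22 times as high under the knockdown label in monocyte-macrophage-like cells, was 0.802 times as high in the Ly6c2 Plac8 cluster, where Fcgr2b had a ratio of 1.16. Fcgrt, at 0.921 in the class, had ratios of 1.07 in the Lyve1 Cd163 cluster, 1.17 in the Nos2 Mmp12 cluster, 1.08 in the Ch25h Ccl12 cluster and 1.14 in the Prg4 Cd5l cluster. Fcgr4, at 0.920 in the class, had ratios of 1.30 in the Nos2 Mmp12 cluster and 1.17 in the Prg4 Cd5l cluster. Fcer1g, at 1.033 in the class, had ratios of 0.965 in the Car4 Vcan cluster and 0.956 in the Nos2 Mmp12 cluster. In dendritic-cell-like cells, where Fcer1g had a ratio of 1.06, the Xcr1 Clec9a cluster had 0.843.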

How the results depend on the processing

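The activating to inhibitory ratio kept its direction under every alternative run, between 1.185 and 1.226 times as high under the knockdown label in monocyte-macrophage-like cells, 1.030 and 1.094 in neutrophil-like cells and 1.365 and 1.564 in dendritic-cell-like cells. In monocyte-macrophage-like cells it left its counting interval with each cell weighing the same (1.191) and, in a setting chosen after seeing the data, with each cluster weighing the same (1.185). Single members there also left their counting intervals without turning, Fcgr2b in 6 of 11 alternatives, Fcgr3 and Fcgrt in 5, Fcgr4 in 3, and Fcgr1 and Fcer1g in 2. Fcgr2b ranged from 0.866 to 0.933 and Fcgr3 from 1.055 to 1.108, so processing moved these ratios further than their counting intervals reach. The number of members 1.5-fold apart there stayed at 0 in all 10 alternatives. Among ratios whose main interval excluded 1, directions turned for Fcgrt in neutrophil-like cells with doublets kept (1.32) and for Fcer1g there under median-ratio scaling (1.035). They also turned for Fcgrt in monocyte-macrophage-like cells with clusters weighing the same (1.01) and for Fcgr3 in T-cell-like cells with doublets kept (0.970). Fcgr2b in T-cell-like cells turned with each cell weighing the same (0.812), after thinning to 1000 UMIs (0.594) and under a marker gate per cell (0.482). Ratios whose main interval held 1 crossed it too. These were Fcgr1 (up to 1.53) and Fcgr3 (up to 1.08) in neutrophil-like cells and Fcgr4 (up to 1.52) and Fcgrt (up to 1.16) in dendritic-cell-like cells. In T-cell-like cells they were Fcgr1 (down to 0.697), Fcer1g (down to 0.776) and Fcgrt (down to 0.797). For Fcgrt with clusters weighing the same, the construction gives large and small clusters equal weight, and the cause of these turns was not tested. No paired analysis was possible because there is 1 library per label. Depth limits neutrophil-like cells most, at medians of 1336 UMIs in the knockdown-labelled library and 1261 in the WT-labelled library, so Fcgr1 and Fcgr4 there rest on 57 against 36 and 235 against 188 UMIs. Spread between mice is not measured by any interval.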
